A study of Homo sapiens with 12 samples.

Results

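Mesenchymal and extracellular matrix genes were examined in 4 stable lines of HCT116, a human colorectal cancer cell line that forms poorly differentiated tumours. The set holds 51 genes, taken by symbol from a table of 28395 genes, and all 51 were found in it. RNA-seq was performed on 3 libraries of each line, 12 in all, to ask how the transcription factors EHF and CDX1, alone and together, change gene expression in these cells. EHF is an ETS-family factor and CDX1 a homeobox factor, and both belong to the differentiated intestinal epithelium. HCT116-EV cells received the empty pcDNA3.1 vector and HCT116-EHF cells the same vector carrying EHF, and in each case geneticin-resistant clones were taken. For HCT116-CDX1, cells transduced with a CDX1 retrovirus were sorted together on its GFP marker, and HCT116-EHF+CDX1 cells were geneticin-resistant clones of those HCT116-CDX1 cells after transfection with EHF. Thus the 2 lines with CDX1 share the retrovirus, the 3 lines other than HCT116-CDX1 went through geneticin, and no line carrying an empty retrovirus was among the samples. The 4 are called the EV, EHF, CDX1 and EHF+CDX1 lines from here on. None of the labels says whether the libraries of a line came from separate cultures, so every p-value below measures the spread between these libraries, which may be technical. The study's description of these RNA-seq data also counts fewer biological replicates than there are libraries per line, so n below is a number of libraries.

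Epithelial cells that take on mesenchymal features switch on transcription factors such as ZEB1, SNAI1, SNAI2 and TWIST1, which repress epithelial junction genes, and they gain the intermediate filament vimentin, contractile proteins and matrix proteins. The matrix itself is built from collagens and glycoproteins, stiffened by cross-linking enzymes and cut by proteases whose activity inhibitors hold in check. Transforming growth factor β (TGF-β) drives much of this programme in many epithelia, but HCT116 cells are mismatch repair deficient and carry frameshift mutations in TGFBR2, the gene of its type II receptor.

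Total counts lay between 13523007 and 74186741 reads per library. Levels are given as CPM, the read count of a gene scaled to a fixed library total, after TMM scaling of the libraries, with TMM factors of 0.799 to 0.845 in the CDX1 line and 0.973 to 1.09 in the other lines. The transgene EHF measured 299 ± 54.4 CPM (SD, n = 3) in the EV line, 19312 ± 305 CPM in the EHF line, 12.3 ± 0.603 CPM in the CDX1 line and 18708 ± 1433 CPM in EHF+CDX1-line cells. CDX1 measured 525 ± 35.8 CPM in the CDX1 line and 5418 ± 277 CPM in EHF+CDX1-line cells, so the lines with CDX1 differed in its level as well as in EHF. All 6 epithelial markers examined were expressed in every line, with summed levels of 4795 to 5599 CPM in the EV line, 4399 to 4538 CPM in the EHF line, 2544 to 3087 CPM in the CDX1 line and 4728 to 4970 CPM in EHF+CDX1 libraries. KRT8, KRT18 and KRT19 were lowest in the CDX1 line, with KRT8 at 1012 CPM against 2181 CPM in the EV line. EPCAM was highest there, at 491 CPM against 265 CPM in the EV line. In the EV, EHF, CDX1 and EHF+CDX1 lines CDH1 averaged 213, 102, 117 and 111 CPM. CLDN7 averaged 271, 221, 203 and 224 CPM in that order. In the EV line both spread widely, CDH1 from 129 to 374 CPM and CLDN7 from 159 to 481 CPM, with library 3 the highest. The CLDN7 means of the other lines lay inside that range, so no order of the lines is read from them. The 7 fibroblast markers summed to at most 3.14 CPM in any library, with PDGFRA, COL1A2, DCN, LUM and THY1 at 0 reads in the EV line, and the 4 endothelial markers to at most 2.04 CPM. The 4 leukocyte markers summed to 2.32 to 10.7 CPM in the EV line and 79.8 to 91.3 CPM in the CDX1 line, nearly all of it CD68, a lysosomal protein, while PTPRC, the pan-leukocyte marker, averaged at most 0.0896 CPM in any line.

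EV library 3 stood apart from the other EV libraries. A chi-square statistic over genes, divided by its degrees of freedom, was 4.19 when EV library 1 was set against library 2, and 324 and 294 when library 3 was set against library 1 or 2, and it was at most 47.3 within the other lines. Of the 46 mesenchymal and matrix genes that could be tested, 23 exceeded 1.5 times the higher of libraries 1 and 2 in library 3, against 24.6% of all genes tested. AXL, a receptor tyrosine kinase, measured 44.0 and 40.05 CPM in libraries 1 and 2 and 175 CPM in library 3. PLAUR, the urokinase receptor, measured 15.9, 13.5 and 86.5 CPM, and COL6A1 268, 289 and 689 CPM in the same order. Values without library 3 are therefore given beside comparisons with the EV line whose call changed, or called ones whose fold moved over 1.5 times. Changes that rest on at most 3 reads in a line may be left out.

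**Figure D1:**
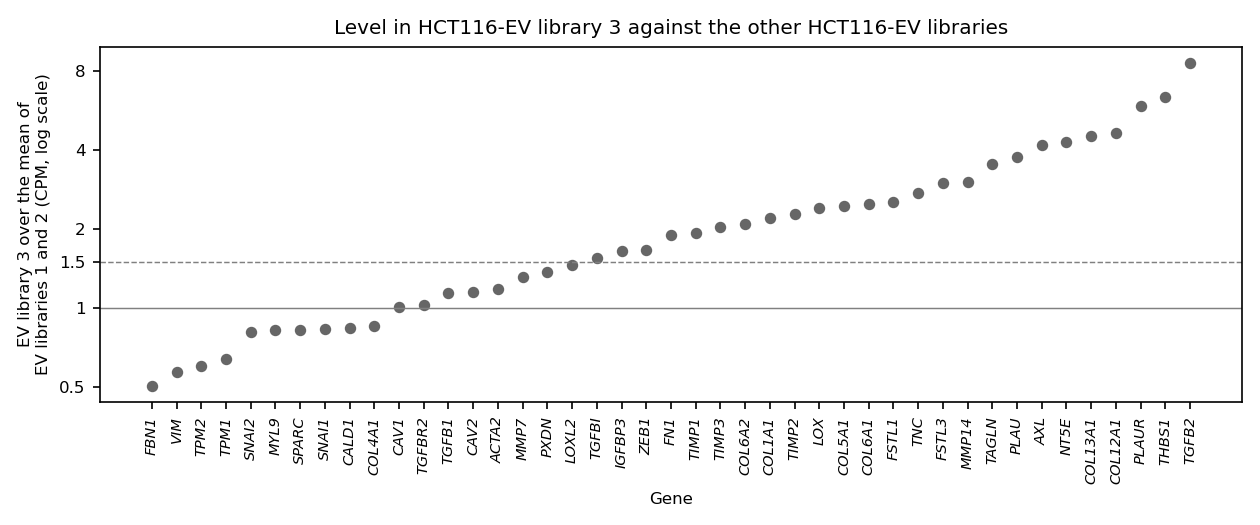
Ratio of the level in EV library 3 to the mean of libraries 1 and 2 (vertical axis, CPM, log scale) for each gene with a ratio above 0 (horizontal axis, sorted). The solid line marks 1 and the dashed line 1.5, and the points run from 0.506 for FBN1 to 8.54 for TGFB2, while CAV1 at 1.01 and TGFBR2 at 1.03 lie on the solid line.

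Of the 51 genes, 46 reached 0.5 CPM in at least 3 libraries and were tested among 15853 genes. ZEB2, N-cadherin (CDH2), fibrillin-2 (FBN2), periostin (POSTN) and activin A (INHBA) were not, with at most 8, 12, 19, 1 and 15 reads in any library. CDH2, the cadherin that mesenchymal cells put in the place of E-cadherin, measured 0.137 ± 0.181 CPM in the EV line, 0.0957 ± 0.0494 CPM in the EHF line, 0.0472 ± 0.0412 CPM in the CDX1 line and 0.153 ± 0.0684 CPM in EHF+CDX1-line cells (SD, n = 3), so no change in it was detectable at this depth. Per exon length, on the deposited log2 RPKM scale, β-tropomyosin (TPM2) and caveolin-1 (CAV1) were among the most abundant members in EV-line cells at 7.61 and 6.74, COL6A1 followed at 6.52, and vimentin (VIM) stood at -5.01 and COL4A1 at -7.66. Exons of 26 of the 51 genes overlap an exon of another annotated gene on the opposite strand, VIM, ZEB1, SNAI2, THBS1 and TGFB2 among them. Since the strand setting of the counting is not given in the sources used here, reads of such partners may be included.

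**Figure D2:**
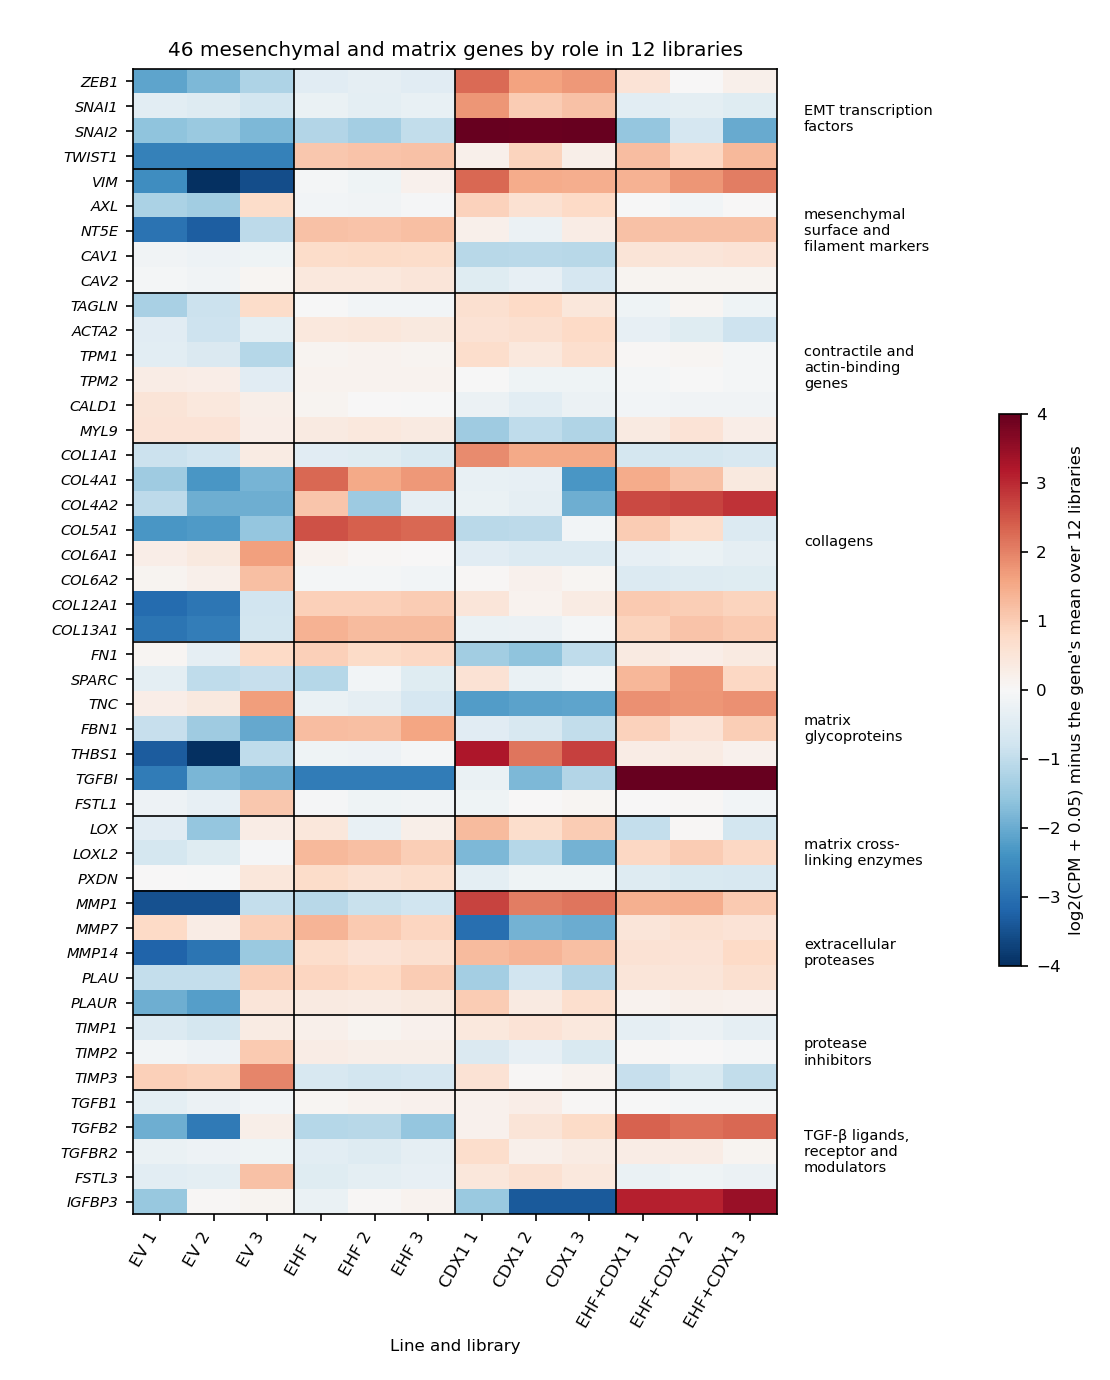
Level of the 46 tested genes (rows, grouped by role) in the 12 libraries (columns), as log2(CPM + 0.05) minus the gene's mean over the libraries, with the colour scale ending at -4 and 4. SNAI2 and THBS1 are highest in the 3 CDX1 libraries, TGFBI, TGFB2 and IGFBP3 in the 3 EHF+CDX1 libraries, and VIM, NT5E, COL12A1 and MMP14 are lowest in the EV line.

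More of these genes rose than fell in each line against the EV line. A gene was called when an edgeR quasi-likelihood test against a 1.5-fold change gave a Benjamini-Hochberg adjusted p under 0.05 over all genes. In EHF-line cells 11 of 46 genes were called higher and 1 lower, against 5.68% and 2.65% of all genes, and the median log2 fold change was 0.47 over the 46 genes and -0.04 over all genes. CDX1-line cells had 15 higher and 9 lower against a background of 21.3% and 23.3%, with medians of 0.93 and -0.03. For EHF+CDX1-line cells the counts were 18 higher and 1 lower against 7.30% and 3.13%, with medians of 0.53 and -0.03. The share of the 46 genes called higher lay above the background in each line, while the share called lower lay near it or below it. These shares are a description and not a test, since the genes were chosen with earlier results of these data known. TWIST1, VIM, COL4A1, COL4A2 and TGFBI, with at most 5 reads in the EV line, passed the filter through other lines and could hardly be called lower.

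Without EV library 3 the increases were more numerous. They came to 21 in the EHF line, 21 in the CDX1 line and 23 in EHF+CDX1-line cells, against 9.47%, 26.2% and 11.2% of all genes, while 1, 9 and 1 genes were lower against 3.60%, 24.9% and 4.40%. Genes that gained a call in all 3 lines were TAGLN, a smooth muscle actin-binding protein, AXL and PLAUR, each of which was over 3 times higher in library 3 than the mean of the other EV libraries. For PLAUR the log2 fold changes without library 3 were 2.44, 2.79 and 2.25 in the EHF, CDX1 and EHF+CDX1 lines. With all libraries they were 1.03, 1.38 and 0.84. The 6 genes called higher in each of the 3 lines against the EV line in the full data were TWIST1, VIM, NT5E, COL12A1, COL13A1 and MMP14, a pattern found in 2.58% of all genes. These comparisons share the EV libraries.

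**Figure D3:**
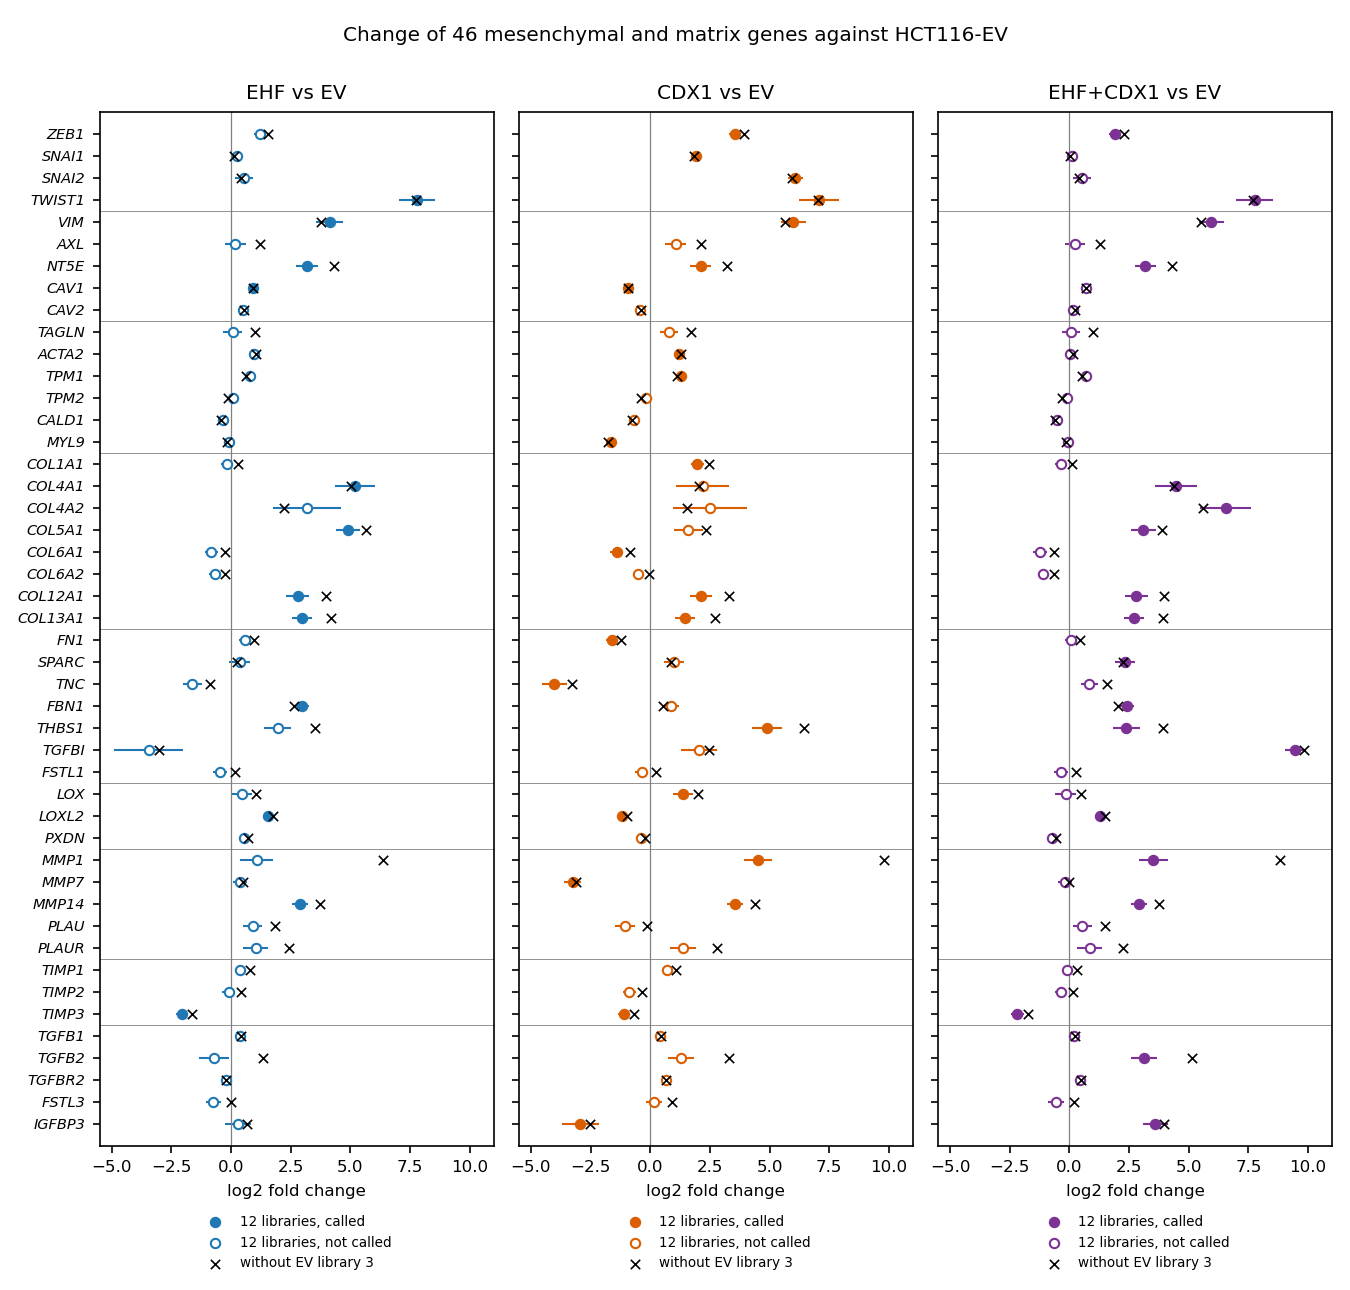
Log2 fold change against the EV line (horizontal axis) of the 46 genes (rows, grouped by role as in the heat map) in the EHF line, the CDX1 line and EHF+CDX1-line cells. Circles with standard error bars use 12 libraries and are filled where called, and crosses leave out EV library 3: most crosses lie to the right of their circles, such as COL12A1 in the EHF line at 3.97 against 2.79. Fitted values of TWIST1, TGFBI, COL4A1 and COL4A2, and the crosses of MMP1, VIM and COL5A1, rest on at most 3 reads in a line and depend on the prior count.

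Among the transcription factors of the epithelial-mesenchymal transition, all 4 tested rose in CDX1-line cells, and 3 of them were lower again in EHF+CDX1-line cells. Over all genes 21.3% rose in the CDX1 line, and 14.8% did so and were lower again. SNAI2 (Slug) measured 0.388, 0.426 and 0.331 CPM in the EV libraries, 0.532, 0.462 and 0.612 CPM in the EHF line, 32.95, 20.6 and 22.05 CPM in the CDX1 line and 0.402, 0.778 and 0.276 CPM in the EHF+CDX1 line. Every CDX1 library thus lay far above the 9 others, which stayed between 0.276 and 0.778 CPM. SNAI2 rose 67.5-fold in the CDX1 line against the EV line (log2 fold change 6.08, SE 0.33, edgeR adjusted p = 3.92e-08) and was 47.1-fold lower in the EHF+CDX1 line than in CDX1-line cells (log2 fold change -5.56, SE 0.31, edgeR adjusted p = 8.52e-08). Its values in the EHF+CDX1 line and EV-line cells differed by 0.52 on the log2 scale (SE 0.38, edgeR adjusted p = 1).

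ZEB1 (chr10:31318417-31529804), a zinc finger repressor of E-cadherin, had its highest level in the CDX1 line. It measured 0.904, 1.14 and 1.69 CPM in the EV line, 2.93, 3.13 and 2.92 CPM in the EHF line, 19.7, 12.5 and 13.6 CPM in the CDX1 line and 5.90, 4.06 and 4.63 CPM in EHF+CDX1 libraries. No 2 lines overlapped, but the EHF+CDX1 line was not called against the EHF line (log2 fold change 0.70, SE 0.24). ZEB1 rose 11.8-fold in the CDX1 line (log2 fold change 3.56, SE 0.26, edgeR adjusted p = 5.83e-07) and 3.77-fold in the EHF+CDX1 line against the EV line (log2 fold change 1.91, SE 0.26, edgeR adjusted p = 0.00105), and the latter line was 3.13-fold below the CDX1 line. In the EHF line the log2 difference from the EV line was 1.21 (SE 0.26, edgeR adjusted p = 0.0538), and without EV library 3 it was 1.56 and called (edgeR adjusted p = 0.00643).

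SNAI1 (Snail) was already expressed in EV-line cells at 17.9 ± 1.98 CPM (SD, n = 3), against 21.1 ± 1.01 in the EHF line, 67.4 ± 19.2 in the CDX1 line and 19.4 ± 0.527 CPM in EHF+CDX1-line cells. It rose 3.77-fold in the CDX1 line (edgeR adjusted p = 7.87e-06) and was 3.47-fold lower in the EHF+CDX1 line than in the CDX1 line. TWIST1, a basic helix-loop-helix factor, followed another order. It had 0 reads in the 3 EV libraries together, 99 reads in the EHF line, 50 in the CDX1 line and 80 in the EHF+CDX1 line. Against a limit of 3 reads over a line, TWIST1 was at least 21.9-fold higher in the EHF line, at least 13.4-fold in the CDX1 line and at least 22.0-fold in EHF+CDX1-line cells, although its mean stayed at or below 0.669 CPM in every line.

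**Figure D4:**
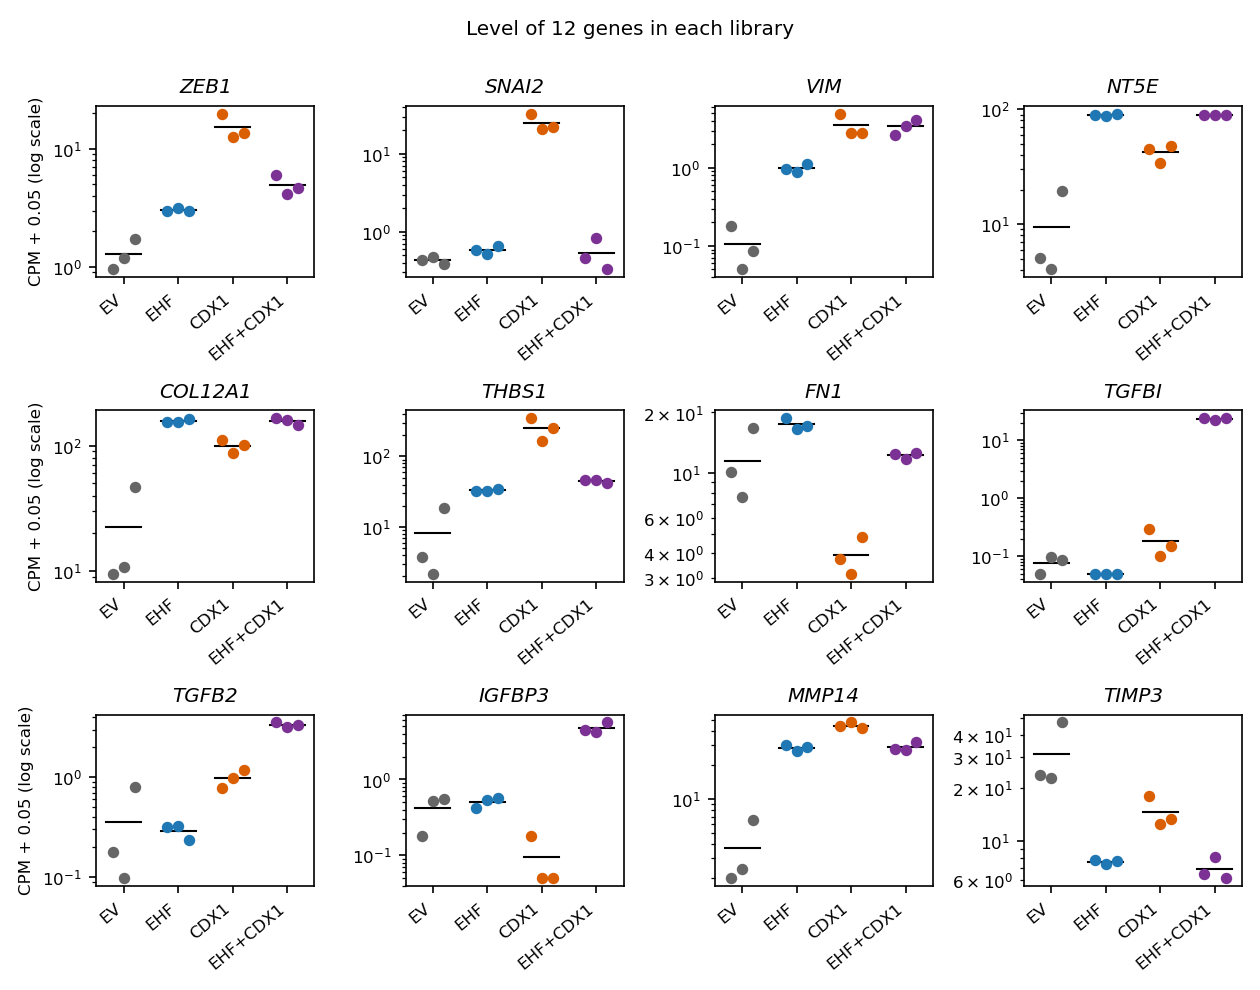
Level of 12 genes in each library (points, CPM + 0.05 on log axes that differ between panels) by line, with horizontal bars at the line means. SNAI2 and THBS1 peak in the CDX1 line, TGFBI, TGFB2 and IGFBP3 in the EHF+CDX1 line, FN1 dips in the CDX1 line to a mean of 3.85 CPM, and TIMP3 is highest in the EV line at a mean of 31.3 CPM.

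Of the surface and filament markers, vimentin and NT5E rose in all 3 lines. VIM (chr10:17228241-17237593), the intermediate filament of mesenchymal cells, measured 0.129, 0 and 0.0368 CPM in the EV line, 0.904, 0.840 and 1.09 CPM in the EHF line, 4.91, 2.78 and 2.73 CPM in the CDX1 line and 2.62, 3.42 and 4.08 CPM in EHF+CDX1 libraries. The EV libraries were the lowest, with 5 reads in all, the EHF libraries came next, and the 2 lines with CDX1 overlapped. VIM rose 17.6-fold in the EHF line (log2 fold change 4.14, SE 0.57, edgeR adjusted p = 0.00061), 64.1-fold in the CDX1 line (6.002, SE 0.53, edgeR adjusted p = 2e-06) and 61.3-fold in EHF+CDX1-line cells (5.94, SE 0.53, edgeR adjusted p = 1.15e-05). With EV library 1 left out, which held 3 of those 5 reads, the fitted log2 fold changes were 5.04, 6.91 and 6.84 and depended on the prior count. Per exon length its level stayed low, with a mean log2 RPKM of 0.33 in the CDX1 line and -0.12 in EHF+CDX1-line cells.

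NT5E (CD73), a surface enzyme that makes adenosine from AMP, was higher in every library of the other lines than in any EV library. It measured 5.04, 3.98 and 19.3 CPM in the EV line, 89.2, 87.2 and 91.8 CPM in the EHF line, 45.2, 33.9 and 48.3 CPM in the CDX1 line and 88.6, 88.7 and 89.2 CPM in EHF+CDX1 libraries. The increases were 9.12-fold, 4.34-fold and 9.06-fold with edgeR adjusted p of 0.00081, 0.00329 and 0.000665, and the EHF line and the EHF+CDX1 line overlapped. Without EV library 3 its log2 fold changes were 4.30, 3.23 and 4.29 in place of 3.19, 2.12 and 3.18.

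Caveolin-1 and caveolin-2, the coat proteins of caveolae, lie side by side on chromosome 7 (CAV2 at chr7:116499738-116508541 and CAV1 at chr7:116525009-116561185). CAV1 measured 374.5, 364 and 373 CPM in the EV line, 699, 714 and 695 CPM in the EHF line, 194.5, 196 and 193.5 CPM in the CDX1 line and 589, 582 and 604.5 CPM in EHF+CDX1 libraries, with no overlap between lines. It rose 1.90-fold in the EHF line (log2 fold change 0.92, SE 0.07, edgeR adjusted p = 0.00138), fell 1.90-fold in the CDX1 line (-0.93, SE 0.07, edgeR adjusted p = 0.000226) and was 3.04-fold higher in the EHF+CDX1 line than in CDX1-line cells. CAV2 had the same order at smaller distances, at 127 ± 10.5, 178 ± 2.67, 92.9 ± 10.7 and 141 ± 0.561 CPM (SD, n = 3) in the EV line, the EHF line, the CDX1 line and the EHF+CDX1 line, and was not called in any of the 6 comparisons. AXL, at 98.6 ± 3.07, 181 ± 18.4 and 103 ± 3.65 CPM in the EHF line, the CDX1 line and the EHF+CDX1 line, was not called in these lines with all libraries in the fit and was called higher in each when EV library 3 was left out, with log2 fold changes of 1.23, 2.11 and 1.29.

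Of the 6 contractile and actin-binding genes, 3 were called in CDX1-line cells, 2 higher and 1 lower, against 21.3% and 23.3% of all genes. ACTA2, smooth muscle actin, rose 2.31-fold and tropomyosin-1 (TPM1) 2.46-fold, with edgeR adjusted p of 0.00087 and 0.000311, while MYL9, the regulatory myosin light chain, fell 3.165-fold (edgeR adjusted p = 3.4e-06). MYL9 measured 63.3, 62.96 and 51.97 CPM in the EV line, 56.1, 57.45 and 55.3 CPM in the EHF line, 15.97, 21.6 and 18.7 CPM in the CDX1 line and 56.1, 62.7 and 51.8 CPM in the EHF+CDX1 line. The CDX1 line lay below the other 3 lines, which overlapped. The median log2 fold change of the 6 genes against the EV line was 0.07 in the EHF line and -0.02 in EHF+CDX1-line cells. TAGLN, TPM2 and caldesmon (CALD1) were called in none of the 6 comparisons with all libraries in the fit. When EV library 3 was left out, TAGLN was called higher in all 3 lines, with log2 fold changes of 0.997, 1.72 and 1.01 in the EHF line, the CDX1 line and the EHF+CDX1 line. In the same fit CALD1 was called lower in the CDX1 line (-0.77) and ACTA2 higher in the EHF line (1.05).

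Of the 8 collagens, 4 rose in the EHF line, 5 in the EHF+CDX1 line and 3 in CDX1-line cells, and COL6A1 in the CDX1 line was the 1 that fell. Over all genes 5.68%, 7.30% and 21.3% rose in these lines in that order, and 23.3% fell in the CDX1 line. COL12A1 (chr6:75084326-75206053), a collagen that decorates fibrils, measured 9.43, 10.7 and 46.8 CPM in the EV line, 156, 155 and 162 CPM in the EHF line, 112, 88.0 and 101 CPM in the CDX1 line and 166, 159 and 148 CPM in EHF+CDX1 libraries. It rose 6.94-fold, 4.41-fold and 6.95-fold (edgeR adjusted p = 0.00346, 0.00448 and 0.00273). Its log2 fold changes without EV library 3 were 3.97, 3.32 and 3.98 in place of 2.79, 2.14 and 2.80. In fits of the 2 compared lines alone, the calls in the EHF line and the EHF+CDX1 line were lost (edgeR adjusted p = 0.0735 and 0.0552). COL13A1, a transmembrane collagen, measured 1.16, 1.325 and 5.59 CPM in the EV line, 24.15, 22.2 and 22.2 CPM in the EHF line, 7.645, 7.91 and 8.77 CPM in the CDX1 line and 17.3, 20.5 and 18.9 CPM in the EHF+CDX1 line. In both genes EV library 3 was the highest of its line and still below every library of the other 3 lines. COL13A1 rose 7.81-fold, 2.77-fold and 6.46-fold in the EHF line, the CDX1 line and the EHF+CDX1 line (edgeR adjusted p = 0.000991, 0.0284 and 0.0017). Its log2 fold changes were 2.96, 1.47 and 2.69, and 4.20, 2.70 and 3.93 without EV library 3. The call in the CDX1 line was lost when EV library 1 or 2 or any 1 CDX1 library was left out (log2 fold change 1.13 to 1.51), and in DESeq2.

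COL1A1, a chain of type I collagen, had its peak in the CDX1 line. It stood at 46.9 ± 23.1 CPM in the EV line, 41.4 ± 2.53 CPM in the EHF line, 185.5 ± 29.2 CPM in the CDX1 line and 36.6 ± 0.866 CPM in EHF+CDX1-line cells (SD, n = 3). It rose 3.94-fold in the CDX1 line (edgeR adjusted p = 0.000152) and was 5.07-fold lower in the EHF+CDX1 line than there, while its partner chain COL1A2 averaged at most 0.0443 CPM in any line. COL5A1, a fibril-nucleating collagen, rose 30.2-fold in the EHF line to 2.47 ± 0.224 CPM and 8.55-fold in the EHF+CDX1 line to 0.635 ± 0.325 CPM, from 0.0669 ± 0.0376 CPM in the EV line, although limma voom did not call the latter (adjusted p = 0.242). The EV line held 8 reads of COL5A1, 6 of them in library 3. Without that library its log2 fold changes in the EHF line and the EHF+CDX1 line were 5.66 and 3.90, in place of 4.92 and 3.10. The neighbours COL6A1 and COL6A2 on chromosome 21 (chr21:45981770-46005048 and chr21:46098112-46132848), chains of the microfibrillar type VI collagen, had their highest means in the EV line, at 415 ± 237 and 263 ± 122 CPM, with library 3 at 689 and 403.5 CPM. COL6A1 fell 2.655-fold in the CDX1 line (edgeR adjusted p = 0.00522), and without that library it was still called (log2 fold change -0.83), whereas COL6A2 was called in no comparison.

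COL4A1 and COL4A2 encode the chains of basement membrane type IV collagen and stand head to head on chromosome 13, at chr13:110148963-110307157 and chr13:110307284-110513209, so that 1 short stretch separates their start sites and serves as promoter for both. It is shown because the 2 genes took different levels in the lines, and was read from the RefSeq promoter table (GRCh38.p14, plus strand, chr13:110307158-110307283), with COL4A1 starting to its left and COL4A2 to its right. Capitals would mark the ETS-type motif GGAAGT or the CDX-type motif TTTAT on either strand, and there are none.

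COL4A1-COL4A2: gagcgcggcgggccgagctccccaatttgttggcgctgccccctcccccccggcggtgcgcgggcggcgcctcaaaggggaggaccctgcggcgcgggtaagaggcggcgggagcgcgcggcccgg

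COL4A1 measured 0.0431, 0 and 0.0184 CPM in the EV line, 1.17, 0.672 and 0.787 CPM in the EHF line, 0.153, 0.152 and 0 CPM in the CDX1 line and 0.646, 0.512 and 0.276 CPM in the EHF+CDX1 line. COL4A2 measured 0.0431, 0 and 0 CPM, then 0.372, 0.0210 and 0.09998 CPM, then 0.1095, 0.101 and 0 CPM, and 1.17, 1.215 and 1.38 CPM in the same order. COL4A1 was thus highest in the EHF line, and COL4A2 in the EHF+CDX1 line above every other library. With 2 and 1 reads in the EV line, the count ratio of the EHF+CDX1 line to the EV line was 27.0 (95% exact counting interval 7.19 to 227) for COL4A1 and 120 (21.2 to 4765) for COL4A2. COL4A2 was 10.1-fold higher in the EHF+CDX1 line than in EHF-line cells (log2 fold change 3.34, SE 0.70, edgeR adjusted p = 0.0292), while COL4A1 was not called there. The calls for COL4A1 against the EV line were lost on the log2 RPKM table (limma adjusted p = 0.0548 in the EHF line and 0.435 in the EHF+CDX1 line), and the latter also in limma voom (adjusted p = 0.244). That call for COL4A2 was lost when EHF library 2 or 3, CDX1 library 1 or 2 or any 1 EHF+CDX1 library was left out (log2 fold change 2.75 to 3.38), and in DESeq2.

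The matrix glycoproteins held the largest increase among the 46 genes in the EHF+CDX1 line, in TGFBI (chr5:136028988-136063818), a secreted protein that binds collagens and integrins and is named for its induction by TGF-β. It had 3 reads in the EV line, 0 in the EHF line, 17 in the CDX1 line and 2892 in EHF+CDX1-line cells. By library it measured 0, 0.0473 and 0.0368 CPM in the EV line, 0 CPM in each of 3 EHF libraries, 0.241, 0.0505 and 0.103 CPM in the CDX1 line and 24.25, 21.96 and 23.98 CPM in the EHF+CDX1 line. The 3 EHF+CDX1 libraries stood apart from the other 9, in which TGFBI was near 0. The count ratio to the EV line was 765 (95% exact counting interval 262 to 3713), the increase over the EHF line at least 1142-fold and that over the CDX1 line 168-fold (log2 fold change 7.39, SE 0.35, edgeR adjusted p = 1.61e-07). The counting interval covers counting error only.

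The 250 bases before the TGFBI start are shown because the gene was read out in 1 of the 4 lines, and those before TGFB2 because it shared that pattern at a lower level (RefSeq, GRCh38.p14, plus strand, chr5:136028738-136028987 and chr1:218345086-218345335). Capitals mark GGAAGT or TTTAT on either strand.

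TGFBI: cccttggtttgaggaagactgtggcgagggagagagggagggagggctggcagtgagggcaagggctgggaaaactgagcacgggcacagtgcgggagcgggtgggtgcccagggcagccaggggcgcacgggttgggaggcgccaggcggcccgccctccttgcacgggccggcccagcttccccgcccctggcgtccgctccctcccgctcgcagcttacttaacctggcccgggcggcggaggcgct

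TGFB2: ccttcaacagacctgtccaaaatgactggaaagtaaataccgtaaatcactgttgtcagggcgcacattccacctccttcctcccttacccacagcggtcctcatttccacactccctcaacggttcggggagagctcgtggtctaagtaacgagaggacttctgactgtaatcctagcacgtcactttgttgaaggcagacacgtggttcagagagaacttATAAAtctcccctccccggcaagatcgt

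The TGFBI stretch held neither motif, and the TGFB2 stretch held 1 TTTAT on the opposite strand, ending 24 bases before the start and lying inside a TATAAA. Promoters were found for 41 of the 51 genes, at 62 start sites, of which 16.1% held GGAAGT and 32.3% TTTAT in these 250 bases, against 19.5% and 32.7% of all 35116 promoters. A match is a description of the letters only.

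Thrombospondin-1 (THBS1, chr15:39581079-39599466), which activates latent TGF-β and restrains vessel growth, had its peak in the CDX1 line. It measured 3.70, 2.13 and 18.5 CPM in the EV line, 32.8, 32.6 and 34.97 CPM in the EHF line, 349, 164 and 250 CPM in the CDX1 line and 45.8, 46.5 and 42.2 CPM in the EHF+CDX1 line. The 4 lines did not overlap. THBS1 rose 29.7-fold in the CDX1 line (log2 fold change 4.89, SE 0.63, edgeR adjusted p = 4.78e-05) and 5.24-fold in the EHF+CDX1 line (2.39, SE 0.57, edgeR adjusted p = 0.0265), and was 5.67-fold lower in the latter than in the former. These log2 fold changes were 6.43 and 3.93 without EV library 3. The call in the EHF+CDX1 line was lost when EV library 1 or any 1 EHF+CDX1 library was left out (log2 fold change 2.05 to 2.44) and in DESeq2 (adjusted p = 0.0684). The EHF value was 3.91-fold above the EV line but not called (edgeR adjusted p = 0.0899), and it was called without EV library 3 at a log2 fold change of 3.51 (edgeR adjusted p = 2.51e-07).

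Fibronectin (FN1, chr2:215360865-215436068), the glycoprotein most often used as a mesenchymal marker beside vimentin, went the other way from VIM in the CDX1 line. It measured 10.1, 7.53 and 16.8 CPM in the EV line, 18.7, 16.45 and 17.05 CPM in the EHF line, 3.68, 3.11 and 4.76 CPM in the CDX1 line and 12.4, 11.67 and 12.5 CPM in the EHF+CDX1 line. FN1 fell 3.01-fold in the CDX1 line against the EV line (log2 fold change -1.59, SE 0.25, edgeR adjusted p = 0.000998) and was 3.16-fold higher in the EHF+CDX1 line than in CDX1-line cells (edgeR adjusted p = 0.000814). The EHF+CDX1 line lay within the range of the EV libraries. In the EHF line FN1 was not called (log2 fold change 0.58, edgeR adjusted p = 0.938), and it was called higher there without EV library 3 (0.97, edgeR adjusted p = 0.0206).

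Tenascin-C (TNC), an adhesion-modulating glycoprotein, was at 0.785 ± 0.499 CPM in the EV line, 0.279 ± 0.0488 in the EHF line, 0.0486 ± 0.00417 in the CDX1 line and 1.49 ± 0.0449 CPM in the EHF+CDX1 line (SD, n = 3). It fell 16.3-fold in the CDX1 line and was 29.1-fold higher in the EHF+CDX1 line than there (edgeR adjusted p = 6.24e-05 and 1.18e-05). Without EV library 3 the log2 fold change in the CDX1 line was -3.28 in place of -4.03, and TNC was also called higher in the EHF+CDX1 line against the EV line (1.58, edgeR adjusted p = 0.0158, against 0.83 and 0.786 with all libraries). SPARC, a collagen-binding matricellular protein, was 5.02-fold above the EV line in the EHF+CDX1 line (edgeR adjusted p = 0.00388) at a mean of 1.42 CPM, a call that limma voom did not make (adjusted p = 0.0575). Fibrillin-1 (FBN1, chr15:48408313-48645709), the microfibril scaffold, measured 0.689, 0.473 and 0.294 CPM in the EV line, 3.245, 3.235 and 4.20 CPM in the EHF line, 0.986, 0.859 and 0.669 CPM in the CDX1 line and 2.62, 2.01 and 2.76 CPM in the EHF+CDX1 line. The EHF-carrying lines were higher than the CDX1 line and the EV line, with increases over the EV line of 7.78-fold and 5.31-fold (edgeR adjusted p = 0.000107 and 0.000559). FSTL1, a secreted follistatin-like protein, was called in none of the 6 comparisons.

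Cross-linking enzymes and proteases split between the lines. LOXL2, a lysyl oxidase of type IV collagen, rose 2.92-fold in the EHF line and 2.42-fold in the EHF+CDX1 line and fell 2.28-fold in the CDX1 line (edgeR adjusted p = 0.00174, 0.00852 and 0.00459), at 19.9 ± 4.80 CPM in the EV line and 58.5 ± 6.48, 48.3 ± 3.63 and 8.76 ± 2.61 CPM in the 3 lines in that order. The fall in the CDX1 line was not called by limma voom (adjusted p = 0.0825). LOX, the enzyme of fibrillar collagens, rose 2.57-fold in the CDX1 line from 0.810 ± 0.497 to 2.22 ± 0.441 CPM (edgeR adjusted p = 0.045). That call was lost without any of 8 single libraries (log2 fold change 1.03 to 1.37) and in DESeq2 (adjusted p = 0.158). It was 1.98 without EV library 3, in place of 1.36. PXDN, a peroxidase that forms sulfilimine bonds in type IV collagen, was 2.41-fold lower in the EHF+CDX1 line than in EHF-line cells (edgeR adjusted p = 0.00103), at 29.7 ± 1.44 against 71.8 ± 2.87 CPM.

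The membrane collagenase MMP14 (chr14:22836585-22847758) measured 1.94, 2.37 and 6.49 CPM in the EV line, 29.7, 26.6 and 28.8 CPM in the EHF line, 43.9, 47.65 and 42.5 CPM in the CDX1 line and 27.65, 27.1 and 31.65 CPM in the EHF+CDX1 line. The EV libraries were the lowest and those of the CDX1 line the highest. It rose 7.42-fold, 11.7-fold and 7.52-fold (edgeR adjusted p = 0.000172, 4.61e-06 and 0.000127). These are log2 fold changes of 2.89, 3.55 and 2.91, which were 3.72, 4.38 and 3.73 without EV library 3. TIMP3, which inhibits such enzymes in the matrix, fell in all 3 lines, 4.17-fold in the EHF line, 2.15-fold in the CDX1 line and 4.55-fold in the EHF+CDX1 line (edgeR adjusted p = 0.000739, 0.0225 and 0.000354), from 31.3 ± 13.9 CPM to 7.54 ± 0.208, 14.6 ± 3.01 and 6.85 ± 1.04 CPM. Without EV library 3 the fall in the CDX1 line was not called (log2 fold change -0.67, edgeR adjusted p = 0.199), nor was it without CDX1 library 2 or 3, in limma voom or in DESeq2. TIMP1 and TIMP2 passed in none of the 3 comparisons with the EV line. Without that library TIMP1 was called higher in the EHF line and the CDX1 line, with log2 fold changes of 0.78 and 1.08.

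MMP1 (interstitial collagenase) and MMP7 (matrilysin, an epithelial protease) lie in the protease cluster of chromosome 11, at chr11:102789919-102798160 and chr11:102520508-102530747, and took opposite directions in the CDX1 line. MMP1 measured 0, 0 and 0.239 CPM in the EV line, 0.213, 0.252 and 0.275 CPM in the EHF line, 3.59, 2.27 and 2.44 CPM in the CDX1 line and 1.45, 1.499 and 1.106 CPM in the EHF+CDX1 line. It rose 22.9-fold in the CDX1 line and 11.4-fold in the EHF+CDX1 line (edgeR adjusted p = 6.21e-05 and 0.00268), and its 13 EV reads all lay in library 3, so that without it the fitted change depends on the prior count. The call in the EHF+CDX1 line was lost in a fit of the 2 compared lines alone (edgeR adjusted p = 0.062). MMP7 measured 1.895, 1.325 and 2.11 CPM in the EV line, 2.82, 2.29 and 1.975 CPM in the EHF line, 0.0876, 0.253 and 0.2315 CPM in the CDX1 line and 1.54, 1.65 and 1.59 CPM in the EHF+CDX1 line. It fell 9.47-fold in the CDX1 line (log2 fold change -3.24, SE 0.35, edgeR adjusted p = 1.68e-05), and the EV libraries overlapped those of the EHF line and of the EHF+CDX1 line. The urokinase PLAU was 3.05-fold higher in the EHF+CDX1 line than in CDX1-line cells (edgeR adjusted p = 0.0192), a call lost without CDX1 library 1 or 3. With EV library 3 left out it was also called higher in the EHF line and the EHF+CDX1 line against the EV line, with log2 fold changes of 1.86 and 1.49.

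Within the TGF-β family the ligand TGFB2 and the modulator IGFBP3 were called, and the receptor TGFBR2 and the ligand TGFB1 were not. TGFBR2 measured 40.8, 42.9 and 43.0 CPM in the EV line, 36.2, 34.5 and 37.75 CPM in the EHF line, 79.9, 56.4 and 61.5 CPM in the CDX1 line and 60.7, 59.4 and 52.7 CPM in the EHF+CDX1 line. It was not called in any of the 6 comparisons, with a log2 difference from the EV line of 0.45 (SE 0.12, edgeR adjusted p = 1) in the EHF+CDX1 line. A call asks for more than a 1.5-fold change, and in the edgeR test against no change the adjusted p of that difference was 0.013. Every CDX1 and EHF+CDX1 library lay above every EV and EHF library. TGFB1 ranged from 114 ± 10.6 CPM in the EV line to 151 ± 10.8 CPM in the CDX1 line and was not called either. TGFB2 (chr1:218345336-218444619), the ligand whose promoter is printed above, measured 0.129, 0.0473 and 0.7535 CPM in the EV line, 0.266, 0.273 and 0.1875 CPM in the EHF line, 0.723, 0.935 and 1.13 CPM in the CDX1 line and 3.49, 3.15 and 3.32 CPM in the EHF+CDX1 line. It rose 8.67-fold in the EHF+CDX1 line (log2 fold change 3.12, SE 0.54, edgeR adjusted p = 0.0028), was 14.1-fold above the EHF line and 3.57-fold above the CDX1 line, and its EHF+CDX1 libraries exceeded the other 9. In a fit of the EV line and the EHF+CDX1 line alone the edgeR adjusted p was 0.052, and without EV library 3 the log2 fold change was 5.16. In that fit TGFB2 was also called higher in the CDX1 line (3.32, edgeR adjusted p = 8.53e-05, against 1.28 and 0.133 with all libraries). Both values without EV library 3 rest on 3 and 1 reads in EV libraries 1 and 2. The call over the CDX1 line was lost without CDX1 library 1 and on the log2 RPKM table.

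IGFBP3 (chr7:45912245-45921272), a binding protein of insulin-like growth factors that TGF-β induces in many cells, measured 0.129, 0.473 and 0.496 CPM in the EV line, 0.372, 0.483 and 0.512 CPM in the EHF line, 0.131, 0 and 0 CPM in the CDX1 line and 4.38, 4.23 and 5.598 CPM in the EHF+CDX1 line. Again the 3 EHF+CDX1 libraries exceeded the other 9. The gene rose 12.1-fold against the EV line (log2 fold change 3.603, SE 0.52, edgeR adjusted p = 0.000723) and was 9.94-fold above the EHF line (edgeR adjusted p = 0.00277). It fell 7.63-fold in the CDX1 line, where 6 reads were counted in all (edgeR adjusted p = 0.0113, and 0.0657 in a fit of those 2 lines alone). All 6 reads lay in CDX1 library 1, and without it the fitted fall depends on the prior count. FSTL3, an activin antagonist, was called in no comparison with all libraries in the fit. Without EV library 3 it was called higher in the CDX1 line against the EV line (log2 fold change 0.90 in place of 0.17, edgeR adjusted p = 0.000101).

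EHF+CDX1-line cells were also set against each line with 1 factor. Against the EHF line, 8 of 46 genes were higher and 2 lower, where 2.49% and 0.189% of all genes were called. The 5 genes higher than in all 3 other lines were COL4A2, SPARC, TGFBI, TGFB2 and IGFBP3, where 1.96% of all genes had that pattern. All 3 comparisons use the EHF+CDX1 libraries, and the calls of SPARC and TGFB2 over the CDX1 line were lost under some alternatives. VIM, TNC and MMP1 were the others above the EHF line, and COL5A1 and PXDN were lower. The edgeR adjusted p of VIM, SPARC, MMP1, COL4A2 and COL5A1 lay between 0.0279 and 0.0467. EV library 3 is not compared here but enters the estimate of spread that the lines share. Without it the edgeR adjusted p of the same genes lay between 0.000219 and 0.00542. The number called fell from 10 to between 4 and 6 when any 1 library of the EHF line or the EHF+CDX1 line was left out. Against the CDX1 line, 15 genes were higher and 8 lower, where 22.3% and 18.7% of all genes were called. In the fit without EV library 3, NT5E and COL13A1 were also called higher there, with log2 fold changes of 1.06 and 1.22. AXL, TIMP1, FSTL3 and MMP1 were then also called lower, at -0.82, -0.78, -0.73 and -0.99. In 7 genes that rose in the CDX1 line against the EV line the EHF+CDX1 line was lower than the CDX1 line, namely ZEB1, SNAI1, SNAI2, ACTA2, COL1A1, THBS1 and LOX, and 14.8% of all genes did the same. In another 7 that fell in the CDX1 line it was higher than the CDX1 line, namely CAV1, MYL9, FN1, TNC, LOXL2, MMP7 and IGFBP3, against 16.2% of all genes. Both counts thus lay near the background. Both comparisons in these pairs use the CDX1 libraries, so a shared deviation of that line enters both.

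The interaction, the log2 difference of the EHF+CDX1 line from the CDX1 line minus that of the EHF line from the EV line, asks whether the EHF+CDX1 line departs from the sum of the separate changes. It was called positive in 6 and negative in 17 of 46 genes, against 20.2% and 18.0% of all genes, and the median over the 46 was -0.69 against 0.05 over all genes. Without EV library 3 the counts were 5 and 22 against 23.4% and 24.3%. Among genes with a mean of at least 1 CPM, the lowest values belonged to genes that rose in the CDX1 line, with SNAI2 at -6.11 (SE 0.47, edgeR adjusted p = 1.56e-06), THBS1 at -4.47 (SE 0.80, edgeR adjusted p = 0.000935) and VIM at -4.20 (SE 0.67, edgeR adjusted p = 0.000468). The VIM levels of the EHF+CDX1 line overlapped those of the CDX1 line, so its negative value says that the 2 fold changes did not multiply. It rests on 5 reads in the EV line. Positive values came from IGFBP3 at 6.24 (SE 0.90, edgeR adjusted p = 0.000193), MMP7 at 2.69 (SE 0.45, edgeR adjusted p = 0.000939) and TGFBI, whose fitted 10.85 (SE 1.85) depends on the prior count because the EHF line had 0 reads. TNC, with a mean under 1 CPM, stood at 6.48 (SE 0.66, edgeR adjusted p = 1.3e-05), or 5.75 without EV library 3, and it had 6 reads in the CDX1 line. The other genes above the sum were MYL9 at 1.68 (SE 0.17) and TGFB2 at 2.54 (SE 0.79), the latter 0.52 and not called without EV library 3. In the same fit THBS1 stood at -6.005. All 4 transition factors and 4 of 8 collagens were below the sum. Of these, the calls of COL12A1 and COL13A1 were lost under some alternatives, and TWIST1 had 0 reads in the EV line. Neither factor had a fixed dose in this design, since EHF was lower in the CDX1 line than in the EV line and CDX1 higher in the EHF+CDX1 line, and the part of these levels in the interaction was not tested.

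**Figure D5:**
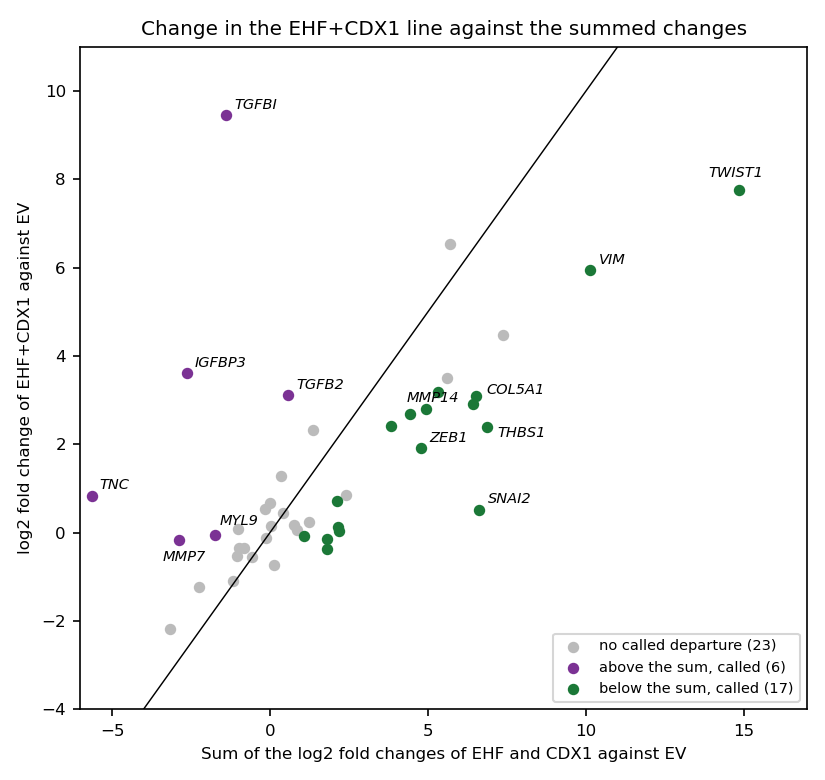
Log2 fold change of the EHF+CDX1 line against the EV line (vertical axis) plotted against the sum of the log2 fold changes of the EHF line and the CDX1 line (horizontal axis) for 46 genes, with the line of equality. Green points below the line are the 17 genes called below the sum and purple points above it the 6 called above, among them TGFBI and IGFBP3. The values of TGFBI and TWIST1 depend on the prior count.

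Of 118 other genes of matrix, TGF-β and mesenchymal biology, 95 were tested. In the EHF+CDX1 line against the EV line 12 were higher and 6 lower, where 7.30% and 3.13% of all genes were called, with a median log2 fold change of -0.06. Without EV library 3 the counts were 29 and 7, against 11.2% and 4.40%. In the EHF line 13 were higher and 6 lower against 5.68% and 2.65%. The CDX1 line had 29 higher and 23 lower, against 21.3% and 23.3%. The largest increases in the EHF+CDX1 line were in GREM1, a BMP antagonist, NID1, a linker of basement membranes, and CNN1, smooth muscle calponin. GREM1 had 0 reads in the EV line and 3.26 ± 0.485 CPM in the EHF+CDX1 line (at least 107-fold), NID1 rose 70.0-fold to 7.61 ± 0.315 CPM (edgeR adjusted p = 4.36e-06), and CNN1 had a count ratio of 59.5 (95% exact counting interval 10.4 to 2382). GREM1 and NID1 stood at 0.0449 ± 0.0574 and 1.43 ± 0.462 CPM in the CDX1 line and at 0.150 ± 0.0984 and 0.277 ± 0.178 CPM in the EHF line. The largest decreases were in versican (VCAN), a large proteoglycan that fell 5.29-fold from 470.5 ± 219 to 89.0 ± 2.26 CPM, COL4A6, which fell 3.19-fold, and COL18A1, the source of endostatin, which fell 2.89-fold (edgeR adjusted p = 7.62e-05, 0.00252 and 0.00201). Each of these 3 was also lower in the EHF line and CDX1 libraries than in any EV library.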

How the data were processed

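RNA-seq was performed by the authors on 4 stable HCT116 lines, with 3 libraries each. They aligned reads to GRCh38/hg38 with Subread 2.0.0 and counted uniquely mapped reads on RefSeq exons with featureCounts 2.0.0 (versions from the submitters' processing notes). The authors deposited raw counts for 28395 genes, 550 of them without a symbol, and log2 RPKM values for 15853 genes, made with a CPM filter, limma voom quantile normalization and exon length. The strand setting is not given in the sources used here. The other data types of the study were not analysed here.

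The 12 libraries were fitted together in edgeR 4.0.16 (R 4.3.3, TMM, quasi-likelihood) with line as the factor. Genes entered when 3 or more libraries reached 0.5 CPM, which left out 0.0585% of the counts. A call means glmTreat beyond 1.5-fold with Benjamini-Hochberg adjusted p under 0.05, adjustment running over the 15853 genes. Standard errors were obtained from the quasi-likelihood F statistic. For bounds, a line with 0 reads was set to 3 reads over its libraries, and with 1 to 3 reads a count ratio is given with its exact 95% interval, which covers counting error only. The procedure was tested on simulated counts in which only the EHF+CDX1 line had changed genes. Those counts held no deviating EV library and no changes in the CDX1 line, so they cannot speak for either.

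The 51 genes, their roles and the lists of other genes were chosen with earlier results of these data known. Values per library are given for the 10 called genes with the largest change in the EHF+CDX1 line against the EV line, the 5 with the largest change in the EHF line and in the CDX1 line, the 3 highest and 3 lowest called interactions (each gene with a mean of at least 1 CPM), VIM, FN1, CDH2, ZEB1, SNAI2, TGFBR2 and 4 neighbouring pairs. AXL, PLAUR and MYL9, and the interactions of TNC, TGFB2 and MYL9, were added after their values were seen.

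Alternatives were RLE factors, limma 3.58.1 voom, DESeq2 1.42.0, no filter, a test against no change, fits of the compared lines alone, a replicate block, leaving out each library, and limma applied to the log2 RPKM table. Promoters were taken from RefSeq (GRCh38.p14) and exon overlaps from GENCODE. TAGLN, MYL9, TIMP2, TWIST1, SNAI2, SNAI1, COL1A1, COL6A1, MMP1 and LOXL2 had no promoter entry.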

Additional observations from a re-analysis of the deposited data

Results flagged for a closer look

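The change that went with EHF differed between cells with and without CDX1, by the interaction term in edgeR. On the log2 scale the interaction was -6.11 for SNAI2, -4.47 for THBS1, -4.20 for VIM, 2.69 for MMP7, 6.24 for IGFBP3, 6.48 for TNC and 10.85 for TGFBI, with 1.68 for MYL9 and 2.54 for TGFB2. The value of TGFB2 was 0.52 and not called without EV library 3, that of THBS1 was then -6.005, and those of IGFBP3 and TNC rest on 6 reads each in the CDX1 line. The value of TGFBI depends on the prior count, since TGFBI had 0 reads in the EHF line and 3 in the EV line, and that of VIM rests on 5 reads in the EV line. Of the 46 genes tested, 6 lay above the sum of the separate changes and 17 below it, where 20.2% and 18.0% of all genes were called. EHF measured 12.3 CPM in the CDX1 line and 299 CPM in the EV line, and CDX1 measured 525 CPM in the CDX1 line and 5418 CPM in the EHF+CDX1 line. The part of these levels in the interactions was not tested. The CDX1 line was a sorted pool and the other lines were taken as resistant clones, so clone and factor cannot be told apart.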

How the results depend on the processing

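Of 111 gene results called over the 6 comparisons, 77 stayed called under every alternative and 88 in every fit that left out 1 library. The number of genes called in the EHF line against the EV line was 12, and 23 in the test against no change. It ranged from 12 to 22 when 1 library was left out, and the highest came without EV library 3. In the CDX1 line against the EV line it was 24, and 37 in the test against no change. In the EHF+CDX1 line against the EHF line it was 10, and 5 with limma run on the log2 RPKM table. It ranged from 4 to 10 when 1 library was left out, with 6, 5 and 4 without EHF library 1, 2 and 3 and 6, 5 and 6 without EHF+CDX1 library 1, 2 and 3, while the genes lost were VIM, MMP1, COL4A2, SPARC, TNC or COL5A1. The interaction of FSTL3 was 0.00, ranged from -0.74 to 0.27 when 1 library was left out, and was called at the lowest value, without EV library 3 (edgeR adjusted p = 0.0415). The causes were not tested. Libraries with the same replicate number did not deviate together (18 pairs, correlations of -0.0653 to 0.0802), so the number does not pair them, and with the replicate block 5 genes were called in the EHF+CDX1 line against the EHF line in place of 10. Depth limits VIM, TWIST1, TGFBI, COL4A1 and COL4A2, each with at most 5 reads in the EV line. It also limits TGFB2 without EV library 3, where EV libraries 1 and 2 hold 3 and 1 reads.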
